A study of Homo sapiens with 6 samples.

Results

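TXNIP, the 4 arrestin-domain genes ARRDC1 to ARRDC4 and the MLX, MLXIP and MLXIPL regulators form the group of 8 genes described here, out of 20660 gene names in the deposited table. The members were selected by gene name, after the authors' folds and q-values for TXNIP and ARRDC4 in this same comparison had been seen. All folds and q-values of the members are therefore descriptions and not independent tests. RNA was sequenced from FaDu, an established squamous carcinoma line of the hypopharynx, given BB608, a compound known here only by its code, or the vehicle DMSO. Each treatment had 3 biological replicates, so 6 libraries in all. No dose or time is given in the sources used here, and FaDu stands for 1 line only. The authors' deposited table holds 1 pooled FPKM value (fragments scaled for sequence length and library size) per treatment and coding sequence, so spread between libraries and depth are unknown. It names the groups DMSO_subset and BB608_subset, and the word subset is not explained in the sources used here. Whether all 3 libraries of a treatment entered its pooled value is therefore not known. The 8 genes have 31 of the 82428 coding sequences, of which 13 were tested by the authors and 18 were not.

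TXNIP and the ARRDC proteins are alpha-arrestins, adaptors that link membrane proteins to ubiquitin ligases and so steer their uptake and degradation. TXNIP also binds thioredoxin and promotes removal of glucose transporters from the cell surface. MLXIP encodes MondoA and MLXIPL encodes ChREBP, transcription factors that sense glucose phosphates and bind DNA as dimers with MLX. TXNIP and ARRDC4 are among their best known targets, and their transcription is therefore widely used as a readout of sugar sensing.

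The start regions of the 3 alpha-arrestin genes with the most similar folds are printed because MondoA and ChREBP act through paired E-box-like half-sites near such starts. They come from RefSeq on GRCh38.p14, run 5′ to 3′ on the gene's strand and cover 250 bases before and 50 bases after a start. Capitals mark every match to 4 motifs, searched on both strands after the TXNIP window had been seen. The first is a pair of half-sites CACGNG, in either orientation and 5 bases apart, of which the half-sites are in capitals. The others are the E-box CACGTG, the NF-Y-type box CCAAT and the forkhead-type box GTAAACA. The E-box is itself a form of the half-site. The upstream of the 2 TXNIP windows lies at chr1:145996530-145996829 (minus strand) and the ARRDC4 window at chr15:97960453-97960752 (plus strand). The downstream of the 2 ARRDC3 windows lies at chr5:91380048-91380347 (minus strand). The other window of TXNIP and that of ARRDC3 are not printed.
TXNIP: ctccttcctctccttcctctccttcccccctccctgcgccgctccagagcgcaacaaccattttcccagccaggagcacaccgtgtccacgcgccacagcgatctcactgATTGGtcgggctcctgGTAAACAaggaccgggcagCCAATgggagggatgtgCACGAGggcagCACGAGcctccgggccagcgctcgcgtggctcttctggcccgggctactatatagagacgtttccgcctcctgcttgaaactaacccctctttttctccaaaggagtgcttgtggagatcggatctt
ARRDC4: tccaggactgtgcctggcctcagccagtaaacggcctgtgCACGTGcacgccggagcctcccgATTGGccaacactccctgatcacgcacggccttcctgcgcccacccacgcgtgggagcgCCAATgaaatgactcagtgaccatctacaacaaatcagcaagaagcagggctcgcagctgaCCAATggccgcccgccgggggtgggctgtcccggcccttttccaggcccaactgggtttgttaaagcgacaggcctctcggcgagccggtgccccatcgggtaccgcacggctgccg
ARRDC3: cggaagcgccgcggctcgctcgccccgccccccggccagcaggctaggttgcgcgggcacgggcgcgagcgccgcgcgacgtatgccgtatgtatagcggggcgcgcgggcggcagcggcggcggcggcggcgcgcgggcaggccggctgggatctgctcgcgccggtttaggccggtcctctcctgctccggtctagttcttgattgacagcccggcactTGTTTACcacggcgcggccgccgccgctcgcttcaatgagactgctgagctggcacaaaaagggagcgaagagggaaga

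TXNIP held the paired half-sites at -88 to -72 from its start, downstream of a box CCAAT at -105 to -101. Such a pair was present in 27 of 35116 RefSeq windows of this length, or 0.0769%, and in 1 of the 11 windows of the 8 genes. The pair was searched for after the TXNIP window had been seen, so its presence there is a description and not a test. ARRDC4 had an E-box at -210 to -205 and no such pair in this window. MLX had an E-box at -50 to -45, and E-boxes were present in 7.26% of all windows. TXNIP also held GTAAACA at -124 to -118, and the printed ARRDC3 window held it, on the other strand, at -29 to -23. The upstream ARRDC3 window, which is not printed, did not hold it but had CCAAT at -241 to -237. The downstream TXNIP window, also not printed, had no match to any of the motifs. GTAAACA was thus in only 1 of the 2 windows of each gene, and no shared motif is read from it. It was present in 3.42% of all windows. The box CCAAT occurred 2 times in TXNIP and 3 times in ARRDC4, and 7 of the 11 windows had it, against 34.6% of all windows. A match describes the letters only, since binding was not measured.

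**Figure D1:**
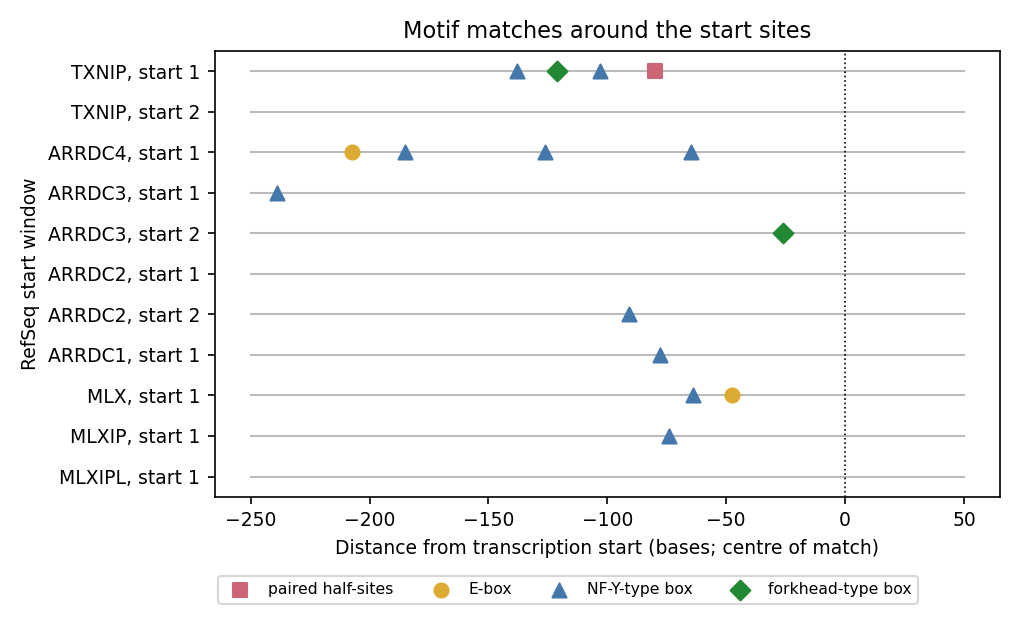
Motif matches in the 11 RefSeq windows of the 8 genes, by distance in bases from the transcription start (dotted line). Each symbol is the centre of a match, and TXNIP alone among these windows has the paired half-sites, centred about 80 bases before its start. The motifs were searched after the TXNIP window had been seen.

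With BB608, TXNIP and ARRDC4 fell past the authors' q, and ARRDC3 was lower by a similar proportion without passing it. The gene sum, which adds the FPKM of all coding sequences of a gene, of TXNIP was 66.1 FPKM in DMSO and 47.3 FPKM in BB608, a ratio of 0.716. That of ARRDC4 was 6.05 FPKM in DMSO and 4.21 FPKM in BB608, a ratio of 0.696. ARRDC3 had 3.40 FPKM with DMSO and 2.43 FPKM with BB608, a ratio of 0.715. In these 3 genes, the change with BB608 thus ran from -28.4% to -30.4%. In RNA from a whole culture, fewer cells with a transcript and less transcript per cell cannot be told apart. Among the regulators, no sequence of MLX or MLXIP passed the authors' q, and their gene sums were 27.2 and 28.5 FPKM for MLX and 5.65 and 6.98 FPKM for MLXIP in DMSO and BB608.

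Of the 13 tested coding sequences, 2 had a q under 0.05, both lower in BB608, and 11 did not. Among all 34474 tested coding sequences, 0.354% passed, 0.212% as lower and 0.142% as higher in BB608. By gene, 2 of 7 members with a tested coding sequence had a call, against 1.06% of all 11429 such genes. At an unadjusted p under 0.05 there were 3 member sequences, those 2 and ARRDC3, where the whole table had 3.31%. The contrast that gives these counts also led to the choice of genes, so nothing is read from them.

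TXNIP, the thioredoxin-binding arrestin, is on chromosome 1 from 145438469 to 145442635 in hg19, the build of the deposited table. In the authors' deposited table its main coding sequence stood at 52.6 FPKM with DMSO and 38.1 FPKM with BB608, which gives a log2 fold of -0.46. A standard error, called the implied SE, was taken from the authors' statistic, scaled by its usual relation to p over the whole table. It was 0.10 here, and the 95% interval ran from -0.66 to -0.27. The Cuffdiff p was 5e-05 and the q 0.0154, which are the smallest values in the table and are shared by 112 of its 122 calls. The second TXNIP sequence was at 13.6 and 9.26 FPKM, a log2 fold of -0.55 (implied SE 0.39; Cuffdiff p 0.155, q 0.997). The point values of both TXNIP sequences were thus lower by about the same proportion. The interval of the second, from -1.31 to 0.20, also took in no change. The main sequence made up 79.5% of the gene sum in DMSO and 80.4% in BB608.

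The TXNIP fall was small among those called. Of the 73 sequences called lower, 69 had a deeper log2 fold than the main TXNIP sequence, and their median was -0.90. Only 2 of the 73 had a higher summed FPKM over both groups. Among 10859 genes kept for comparison (those with a tested sequence, no failed row and a gene sum reaching 1 FPKM in either group), 5.20% had a lower log2 fold of the gene sum than TXNIP at -0.48. By DMSO level TXNIP stood at rank 1293 of these genes.

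ARRDC4, another alpha-arrestin gene that MondoA activates, lies within 98462784 to 98517068 on chromosome 15 of hg19. In the authors' deposited table its single tested coding sequence stood at 6.001 FPKM with DMSO and 4.11 FPKM with BB608, which gives a log2 fold of -0.55 (implied SE 0.14; Cuffdiff p 5e-05, q 0.0154). The interval ran from -0.82 to -0.27 and overlapped that of TXNIP. An untested second sequence was at 0.0447 and 0.0986 FPKM. TXNIP was 10.9 times as abundant as ARRDC4 in DMSO and 11.2 times in BB608, so the proportion between the 2 genes was nearly the same in both groups. Genes with a single tested sequence, as ARRDC4, ARRDC3 and ARRDC2 are, had 2.28% of their 3551 sequences called.

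ARRDC3, an adaptor for ubiquitination of membrane proteins, has 1 coding sequence, within 90664541 to 90679176 on chromosome 5 of hg19. Its log2 fold was -0.48 with an implied SE of 0.23 and an interval from -0.93 to -0.04, and the authors' deposited table lists a Cuffdiff p of 0.0485 with q at 0.997. The point estimate matched that of the TXNIP gene sum at the second decimal, but at this low level the error was more than that of the main TXNIP sequence. TXNIP was 19.4 times as abundant as ARRDC3 in DMSO and 19.5 times in BB608.

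ARRDC1, which drives budding of small vesicles from the plasma membrane, lies within 140500106 to 140513358 on chromosome 9 of hg19. Its gene sum was 3.61 FPKM in DMSO and 2.35 FPKM in BB608, a log2 fold of -0.62. One sequence carried this difference, with 1.38 FPKM under DMSO and 0.236 FPKM under BB608, with a log2 fold of -2.55 and an implied SE of 1.95 (Cuffdiff p 0.437, q 0.997). The other tested sequences were at 1.30 and 1.22 FPKM and at 0.927 and 0.891 FPKM, with log2 folds of -0.10 (implied SE 0.91) and -0.06 (implied SE 0.99). ARRDC1 as a gene sum was therefore lower, but none of its sequences passed the authors' q and their intervals were wide.

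ARRDC2, on chromosome 19 from 18111941 to 18142839 in hg19, was the scarcest arrestin-domain member. Its gene sum was 0.533 FPKM in DMSO and 0.674 FPKM in BB608, under the 1 FPKM asked of kept genes. The tested sequence was at 0.213 and 0.600 FPKM (log2 fold 1.49, implied SE 1.25; Cuffdiff p 0.340, q 0.997), and the untested one at 0.320 and 0.0746 FPKM. These sequences had opposite directions, and no direction is given for the gene. Over all 5 alpha-arrestins the summed level was 79.7 FPKM in DMSO and 57.0 FPKM in BB608, and TXNIP made up 82.9% and 83.0% of it.

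**Figure D2:**
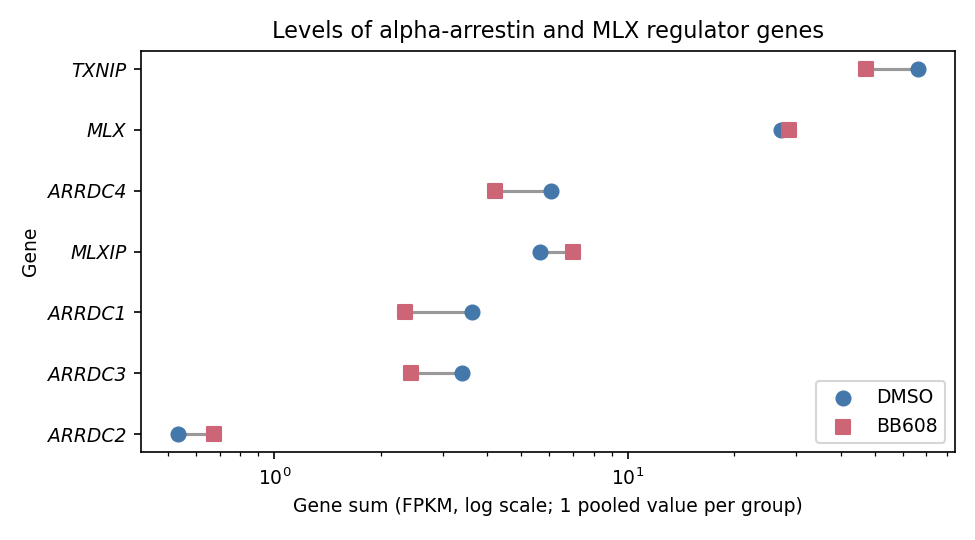
Gene sums in FPKM on a log scale for 7 of the 8 genes, with 1 pooled value for DMSO (circles) and BB608 (squares) each. TXNIP, ARRDC4, ARRDC3 and ARRDC1 lie lower in BB608, and MLX, MLXIP and ARRDC2 lie higher. MLXIPL, at 0.126 FPKM or less, is not drawn.

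MLX, the dimer partner of both glucose-sensing factors, lies within 40719086 to 40729851 on chromosome 17 of hg19. Its main sequences were at 14.3 FPKM in both groups (log2 fold -0.01, implied SE 0.20, interval -0.40 to 0.39) and at 12.8 and 14.2 FPKM (log2 fold 0.15, implied SE 0.35, interval -0.54 to 0.83). Neither passed the authors' q in their deposited table, with Cuffdiff p-values of 0.978 and 0.666. The interval of the first sequence ended short of the -0.46 of the main TXNIP sequence, while that of the second included it.

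MLXIP, the MondoA gene, lies within 122516628 to 122631985 on chromosome 12 of hg19. Its 3 tested sequences were at 2.88 and 3.86 FPKM, at 1.29 and 2.00 FPKM, and at 1.03 and 0.728 FPKM in DMSO and BB608. Their log2 folds were 0.43 (implied SE 0.41), 0.63 (implied SE 1.36) and -0.50 (implied SE 0.75), with Cuffdiff p-values of 0.300, 0.711 and 0.504 and a q of 0.997 each. The gene sum had a log2 fold of 0.30, above that of 85.8% of kept genes, but no sequence was precise enough to set a direction. MLX was 4.81 times as abundant as MLXIP in DMSO and 4.09 times in BB608.

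MLXIPL, the ChREBP gene, lies within 73007524 to 73038873 on chromosome 7 of hg19 and was near the bottom of the scale. None of its 9 coding sequences was tested. Those with a value above 0.01 FPKM were 2 sequences listed at 0 in DMSO and at 0.0848 and 0.0415 FPKM in BB608. No fold is given against a listed 0. Of the 2 glucose-sensing factors, MLXIP was therefore the one with a level above 1 FPKM in either group.

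**Figure D3:**
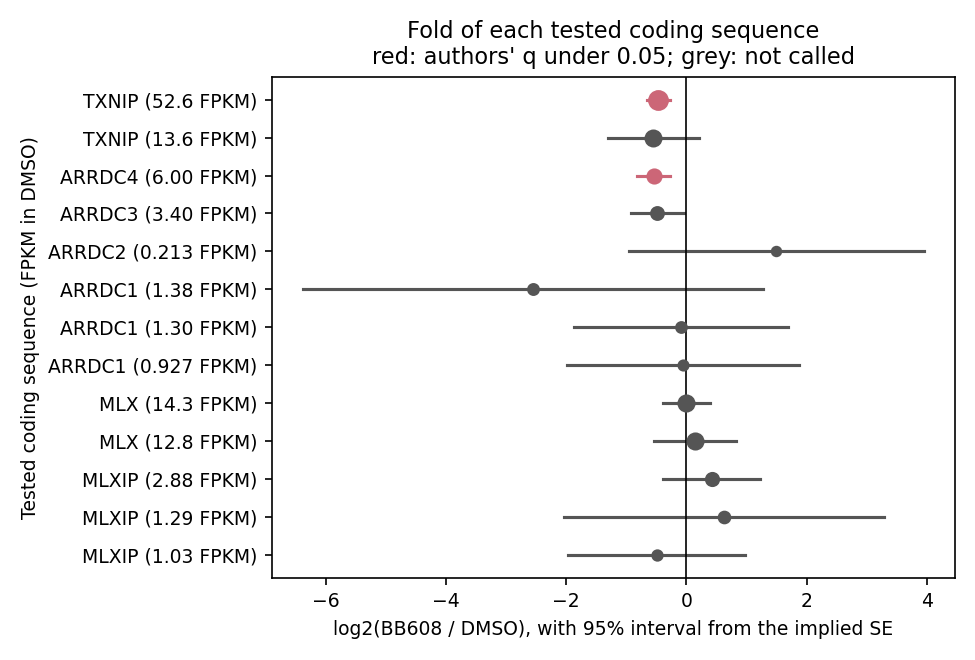
Log2 fold of BB608 over DMSO for the 13 tested coding sequences, with 95% intervals from the implied SE and larger points for more abundant sequences. The intervals of the called TXNIP and ARRDC4 sequences (red) lie below 0. Of the others (grey), only that of ARRDC3 lies wholly below 0, ending at -0.04, while those of ARRDC1, ARRDC2 and MLXIP are wide.

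In DMSO the order of gene sums was TXNIP, MLX, ARRDC4, MLXIP, ARRDC1, ARRDC3, ARRDC2 and MLXIPL. In BB608, MLXIP stood above ARRDC4, and ARRDC3 above ARRDC1. FPKM is scaled by length, so levels of different genes can be set side by side, but without values per library no neighbours in this order can be called different. The 3 kept genes nearest to TXNIP by the distance of their log2 gene sums over the 2 pooled values were NET1 at 62.1 and 46.7 FPKM, RP11-1012A1.4 at 62.2 and 49.8 FPKM and IFRD1 at 66.2 and 51.2 FPKM. Their distances were 0.092, 0.114 and 0.114 log2 units, and 2 values are too few to show a shared pattern.

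Other genes that MondoA or ChREBP regulate in some tissues held 1 call, in the opposite direction to TXNIP. Of 9 tested genes among 15, FASN alone had a call and rose, and 8 were not called. Over all 11429 tested genes, 1.06% had a call. At an unadjusted Cuffdiff p under 0.05 there were 3 genes with a sequence, FASN, ACLY and KLF10, where 9.49% of all 11429 tested genes had one. The called sequence of FASN, fatty acid synthase, went from 35.5 to 49.9 FPKM (log2 fold 0.49, implied SE 0.11; Cuffdiff q 0.0154) in the authors' deposited table. Its gene sum was 43.5 FPKM in DMSO and 65.0 FPKM in BB608. ACLY, ATP citrate lyase, had gene sums of 74.6 and 82.6 FPKM, and its main sequence had a log2 fold of 0.25 (implied SE 0.12; Cuffdiff p 0.0398, q 0.997). The pentose phosphate enzyme gene TKT had gene sums of 248 and 274 FPKM. KLF10, a transcription factor chosen after its value was seen, was at 40.5 and 34.6 FPKM, and its main sequence had a log2 fold of -0.23 (implied SE 0.10; Cuffdiff p 0.0200, q 0.997). The median log2 fold of gene sums of the 9 kept genes was 0.14, against 0.03 for all 10859 kept genes.

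Genes of glucose uptake and phosphorylation had no call by Cuffdiff among 5 tested of 11, and none at an unadjusted p under 0.05. Over all tested genes these shares were 1.06% and 9.49%, so nothing is read from the absence in so short a list. SLC2A1, the main glucose transporter gene here and one whose protein TXNIP is known to remove from the membrane, had gene sums of 91.7 and 90.3 FPKM. Its tested sequence had a log2 fold of -0.02 (implied SE 0.10). The hexokinase genes HK1 and HK2 were at 10.5 and 12.8 FPKM and at 8.36 and 8.66 FPKM. The median log2 fold of the 5 kept genes was 0.29, or 0.16 when only sequences of at least 1 FPKM entered the sums, and HK2 also counts among the MondoA and ChREBP targets.

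The thioredoxin system, to which the TXNIP protein binds, had no call by Cuffdiff among 11 tested genes and none at an unadjusted p under 0.05. Over all tested genes these shares were 1.06% and 9.49%, so nothing is read from the absence here. TXN, which encodes thioredoxin, had gene sums of 250 and 238 FPKM, a log2 fold of -0.07 (implied SE 0.10 for its tested sequence). The reductase gene TXNRD1 was at 490.0 and 460 FPKM and the peroxiredoxin gene PRDX1 at 2021 and 1888 FPKM. The ratio of TXN to TXNIP was 3.78 in DMSO and 5.03 in BB608. The 11 genes had a median log2 fold of -0.03 and a range from -0.21 to 0.08, which does not reach the TXNIP value.

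Partners of alpha-arrestins, that is NEDD4-type ubiquitin ligases and vesicle proteins, had no call by Cuffdiff among 10 tested of 11. Over all tested genes, 1.06% had a call. NEDD4L and SMURF1, ligase genes named after their values were seen, were the 2 with a sequence at an unadjusted p under 0.05, against 9.49% of all tested genes. They had gene sums of 6.995 and 5.12 FPKM and of 0.667 and 1.93 FPKM. NEDD4L had 7 tested sequences, with a smallest Cuffdiff p of 0.0431 and a p of 0.337 for the most abundant. Its gene sums are therefore not the values behind the smallest p. The ligase genes ITCH and NEDD4 were at 65.0 and 64.3 FPKM and at 17.7 and 21.9 FPKM, and PDCD6IP, which encodes the vesicle protein ALIX, at 57.6 and 60.4 FPKM. The kept genes had a median log2 fold of 0.07.

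Other arrestin-fold genes had no call by Cuffdiff among 5 tested of 9 and none at an unadjusted p under 0.05. Their median log2 fold was 0.0025, and its sign depended on the scaling. ARRB2, a beta-arrestin gene, was at 20.8 and 19.8 FPKM, and the retromer genes VPS26A and VPS26B at 15.4 and 21.2 FPKM and at 20.4 and 19.5 FPKM. The MAX network, whose factors share E-box binding with MLX dimers, had no call by Cuffdiff among 9 tested genes and none at an unadjusted p under 0.05, with a median log2 fold of 0.05. MYC was at 65.3 and 68.5 FPKM, MAX at 38.8 and 39.9 FPKM and MGA at 16.5 and 17.7 FPKM. Genes of AMPK, a kinase that targets TXNIP protein for degradation, and of its activator STK11 had no call by Cuffdiff among 6 tested and none at an unadjusted p under 0.05, with a median log2 fold of -0.0044. PRKAG1 was at 57.9 and 57.4 FPKM, PRKAG2 at 27.4 and 26.7 FPKM and PRKAA1 at 25.2 and 27.1 FPKM. Over all tested genes, 1.06% had a call and 9.49% a sequence at an unadjusted Cuffdiff p under 0.05. Nothing is read from their absence in these short lists.

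**Figure D4:**
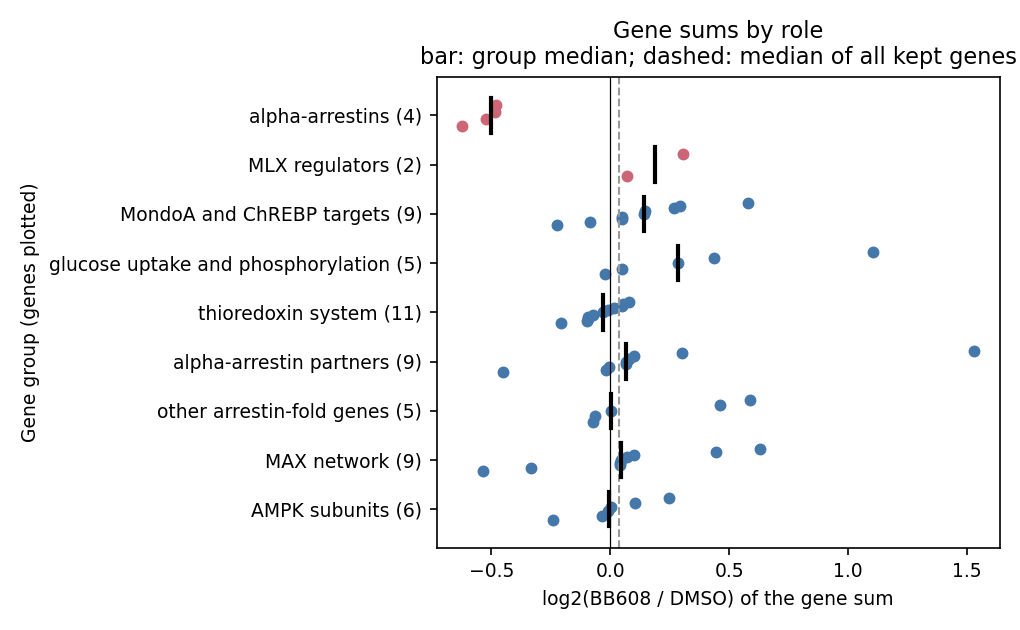
Log2 fold of gene sums by role, 1 point per kept gene, with the group median (bar) and the median of all kept genes (dashed, 0.03). The 4 kept alpha-arrestins lie between -0.62 and -0.48, and MLX and MLXIP at 0.07 and 0.30. The lowest, ARRDC1, rests on 1 scarce sequence and ran from -0.88 to -0.10 over other summaries and scalings. ARRDC2 was not kept and is not drawn. The medians of the other 7 groups lie between -0.03 and 0.29.

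The squamous label was checked against marker genes. All 7 epithelial and squamous markers were kept, with none called and none at an unadjusted Cuffdiff p under 0.05, and KRT5 was at 2334 FPKM in DMSO. Over all tested genes, 1.06% had a call and 9.49% a sequence at such a p. No fibroblast marker and no blood or endothelial marker was tested, and their summed levels were 0.980 and 0.175 FPKM in DMSO and 0.865 and 0.141 FPKM in BB608.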

How the data were processed

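Total RNA libraries depleted of ribosomal RNA were made with a stranded kit, per the labels' protocols. The submitters' processing notes name TopHat2 2.0.11, Cufflinks 2.2.1, Cuffdiff and hg19. The gene annotation was not given in the sources used here. For each coding sequence the authors deposited 1 pooled FPKM per group with a p-value, a q-value and the test statistic, which serves as a score. Depth is unknown.

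Members, lists and motifs were chosen with earlier results of these data known. Folds were recomputed as log2 ratios of the deposited FPKM, without a pseudocount. A call is the authors' q under 0.05, which matched a Benjamini-Hochberg adjustment over 34474 tested rows to within 5.23e-07. The implied SE is the fold divided by the authors' statistic and by 1.73, the median ratio of the normal quantile of p to the statistic over 31204 rows. That ratio varied between sequences (quartiles 1.64 and 1.78), so an implied SE can differ from the error that a sequence's own p would give. The implied SE covers only the spread in the authors' model. Values per library were not analysed here, so limma could not be run and no test was added. From each of the 7 lists the called genes and the 3 most abundant kept genes are named, and genes named beyond this are said to be chosen after their values were seen. In addition, 1 gene planned for a list was taken out of it and is not reported here. The adjustment of p-values was tested on simulated data, whose values are not used. Locus starts are counted from 0 in the table, as spans equalled GENCODE gene lengths that way for 5185 of 18763 genes and the other way for 184, and 1 was added. RefSeq windows matched all 8 members by symbol. Python 3.11.15, numpy 2.4.6, pandas 2.3.3 and scipy 1.17.1 were used. Alternatives were other pseudocounts, scalings, summaries per gene and thresholds.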

Additional observations from a re-analysis of the deposited data

How the results depend on the processing

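The 42 alternative values of the 6 kept members' folds all stayed within 1 implied SE of the value given, a wide bound for ARRDC1 at 0.91. That SE is the one of the gene's most abundant tested sequence and not of the gene sum. All alternatives reuse the same pooled values, so they do not measure spread between libraries. The alternatives were pseudocounts of 1 and 0.1, centring on the median of kept genes (0.03 log2), quantile normalization, the most abundant sequence, tested sequences only and, chosen after seeing the data, sequences of at least 1 FPKM only. TXNIP ran from -0.52 to -0.46, ARRDC4 from -0.56 to -0.44 and ARRDC3 from -0.52 to -0.36. ARRDC1 ran from -0.88 to -0.10 and MLXIP from 0.25 to 0.43, so their sizes are loosely set. MLX, near 0, ran from -0.01 to 0.07 and changed sign with its most abundant sequence. List medians, whose alternatives were chosen after seeing the data, have no error of their own, and 18 of 49 alternative values moved by over 1.5 times or changed sign. The medians ran from 0.11 to 0.16 for MondoA and ChREBP targets, 0.16 to 0.29 for glucose uptake, -0.07 to -0.03 for the thioredoxin system and 0.03 to 0.15 for alpha-arrestin partners. They ran from -0.03 to 0.14 for other arrestin-fold genes, -0.0054 to 0.07 for the MAX network and -0.14 to -0.0044 for AMPK genes. The 2 calls, TXNIP and ARRDC4, were kept with a mean of at least 1 or 5 FPKM and with a q under 0.1, and an unadjusted p under 0.05 added ARRDC3. No paired analysis was possible because each group has only 1 pooled value, and no replicate could be left out either.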
